A study of Mus musculus with 24 samples.

Results

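Versican, hyaluronan and their matrix partners were followed through 10 genes of the 25755 genes counted in dermal papilla (DP) cells. The genes were taken by name, as a set chosen with earlier results of these data known, and the rule itself uses no measured value. They were the lecticans Vcan and Acan, the hyaluronan synthases Has1, Has2 and Has3, the link protein genes Hapln1 and Hapln3, the hyaluronan receptor gene Cd44, and Dcn and Bgn, which encode the small leucine-rich proteoglycans decorin and biglycan. All 10 genes passed the filter on low values in each comparison.

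RNA was sequenced from DP cells of control and dM1/2 mice, in which Hdac1 and Hdac2, histone deacetylases that take acetyl groups off histones, are deleted together in the DP. Each genotype had 3 libraries at each of postnatal days 20, 24, 28 and 60 (P20, P24, P28 and P60), 24 libraries in all, with each mouse sorted on its own. P20 falls in the telogen (rest) of the first hair cycle, P24 and P28 in early and mid anagen (growth) of the second cycle, and P60 in the second telogen. The dM1/2 mice were Cor-cre/+; Hdac1Flox/Flox; Hdac2Flox/Flox, with a Cre line that acts in the DP after birth. All controls also carried Cor-cre/+, with Hdac1Flox/+; Hdac2Flox/+, with a single Flox allele of either gene, with Hdac1Flox/+; Hdac2Flox/Flox or with Hdac1Flox/Flox; Hdac2Flox/+, and the labels do not say which of these a control library had. DP cells carried a YFP reporter and were sorted by FACS and then sorted again. The methods give females for P20, males for P24 and P28 and animals of both sexes for the second telogen.

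Versican is a large chondroitin sulfate proteoglycan that binds hyaluronan through its N-terminal end, and link proteins hold the bond in place. Hyaluronan is a long sugar chain spun out at the cell membrane by the Has enzymes and bound at the cell surface by Cd44. Versican-rich matrix is a known feature of the DP of growing follicles, whereas decorin and biglycan decorate collagen fibrils of the dermis at large.

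The members include 2 pairs of neighbours in which a lectican gene lies beside a link protein gene. In GRCm38, Vcan covers chr13:89655312-89742509 on the minus strand and Hapln1 covers chr13:89539796-89611652 on the plus strand, 43659 bases apart with 0 annotated genes between them. Acan covers chr7:79053483-79115099 on the plus strand and Hapln3 covers chr7:79115102-79131018 on the minus strand, so that the ends of these genes lie 2 bases apart. The 250 bases before the RefSeq start site (GRCm38.p6) are printed for 4 members, 5′ to 3′ on the strand of the gene, since 2 of them (Vcan and Acan) were high in anagen and 1 (Bgn) was high in telogen. Hapln3 is added as the neighbour of Acan. The regions are chr13:89742513-89742762 for Vcan, chr7:79052976-79053225 for Acan, chr7:79131019-79131268 for Hapln3 and chrX:73483351-73483600 for Bgn, and capitals mark matches to 4 short motifs on either strand.
Vcan: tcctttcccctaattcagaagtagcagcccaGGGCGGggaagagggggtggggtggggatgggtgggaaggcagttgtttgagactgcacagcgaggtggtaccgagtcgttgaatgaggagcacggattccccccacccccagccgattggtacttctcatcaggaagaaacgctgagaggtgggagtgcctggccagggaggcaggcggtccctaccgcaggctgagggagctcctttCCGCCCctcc
Acan: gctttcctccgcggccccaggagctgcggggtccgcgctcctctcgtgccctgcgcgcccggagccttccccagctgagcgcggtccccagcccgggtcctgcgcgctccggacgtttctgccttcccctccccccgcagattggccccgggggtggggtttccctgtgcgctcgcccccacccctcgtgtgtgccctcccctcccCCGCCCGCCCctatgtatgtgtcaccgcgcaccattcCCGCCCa
Hapln3: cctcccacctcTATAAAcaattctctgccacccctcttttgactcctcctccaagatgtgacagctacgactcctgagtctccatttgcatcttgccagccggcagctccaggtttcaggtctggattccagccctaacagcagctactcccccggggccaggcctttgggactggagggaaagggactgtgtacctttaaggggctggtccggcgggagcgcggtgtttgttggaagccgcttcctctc
Bgn: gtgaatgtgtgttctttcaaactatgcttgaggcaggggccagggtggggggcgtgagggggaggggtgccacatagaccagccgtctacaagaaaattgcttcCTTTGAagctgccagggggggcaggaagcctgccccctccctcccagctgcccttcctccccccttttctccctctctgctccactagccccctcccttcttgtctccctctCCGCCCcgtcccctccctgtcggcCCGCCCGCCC
The motifs searched were the GC box GGGCGG (reverse complement CCGCCC), the TATA box TATAAA and the TCF/LEF cores CTTTGA and CTTTGT. Of the 32817 windows of 300 bases in the RefSeq table, 35.6% held the GC box, 13.6% the TATA box, 16% CTTTGA and 18.7% CTTTGT on either strand. Vcan held the GC box at 2 places, first bases at -219 and -10 from the start site, and Acan at 3, of which 2 overlap (-44, -40 and -7). Hapln3 held TATAAA at -239. Bgn held CTTTGA at -146 and the GC box at -34, -10 and -6. In the 300-base windows, 74% of the bases of Acan, 61% of Vcan, 57% of Hapln3 and 63.7% of Bgn were G or C, with a median of 52.7% over all windows. A window was found for 7 of the 10 members. Those of Has1 and Hapln1, not printed, held none of the motifs. That of Cd44, also not printed, held the GC box only at 4, past the start site. Such matches are a description of the letters, not of factor binding.

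A library held 8171944 to 9724000 gene-assigned reads at P60, 11635062 to 13369732 at P20 and 35469841 to 49331751 in anagen, so that stage and depth, and in part sex, differ together between anagen and telogen and cannot be told apart. The summed level of 15 DP markers was between 8642 and 50937 normalized reads in telogen libraries and between 106504 and 338312 in anagen libraries, and 0 of the 15 were at 0 in any library. Summed markers of keratinocytes reached at most 714 normalized reads and those of melanocytes at most 206, where those of dermal sheath reached 9291, of endothelium 6097 and of immune cells 1293. Markers of other dermal fibroblasts summed to 43194 to 71846 in P20 controls, where the DP markers reached at most 29764. At P60 they summed to 69116 or more, where the DP markers reached at most 34720. In P20 dM1/2 they summed to 29834 to 40524, against 36196 to 50937 for the DP markers. Such sums over unlike genes are not shares of cells. P60 dM1/2 1 stood apart, with the lowest DP marker sum (8642) and the highest sums of endothelial markers (6097) and of 6 markers of other dermal fibroblasts (172123) among the 24 libraries. Hdac1 fell at P24 (log2 fold change -2.01, adjusted p = 0.00167, limma) and did not pass the threshold at P20 (-0.72), P28 (-0.58) or P60 (-0.25), and Hdac2 did not pass at any age (-0.01 to 0.27). These are RNA values. The paper scored the deletion by immunostaining for both proteins and found it efficient in the DP by mid anagen of the first cycle. The library labelled P28 control 3 held 105 normalized reads of Hdac1, below the 126 to 190.2 of the dM1/2 libraries of that age. Its Corin level, 75255 normalized reads, was the highest of that age, where the other P28 controls held 41112 and 30326 and the dM1/2 libraries between 4009 and 5005. Levels are normalized reads, which are read counts divided by the authors' size factor for the library. A gene was called where limma gave an adjusted p under 0.05 (Benjamini-Hochberg, over all genes tested) on log2(normalized reads + 1), a scale that understates the change of low genes. In bulk RNA, fewer cells of a type and less RNA per cell cannot be told apart.

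**Figure D1:**
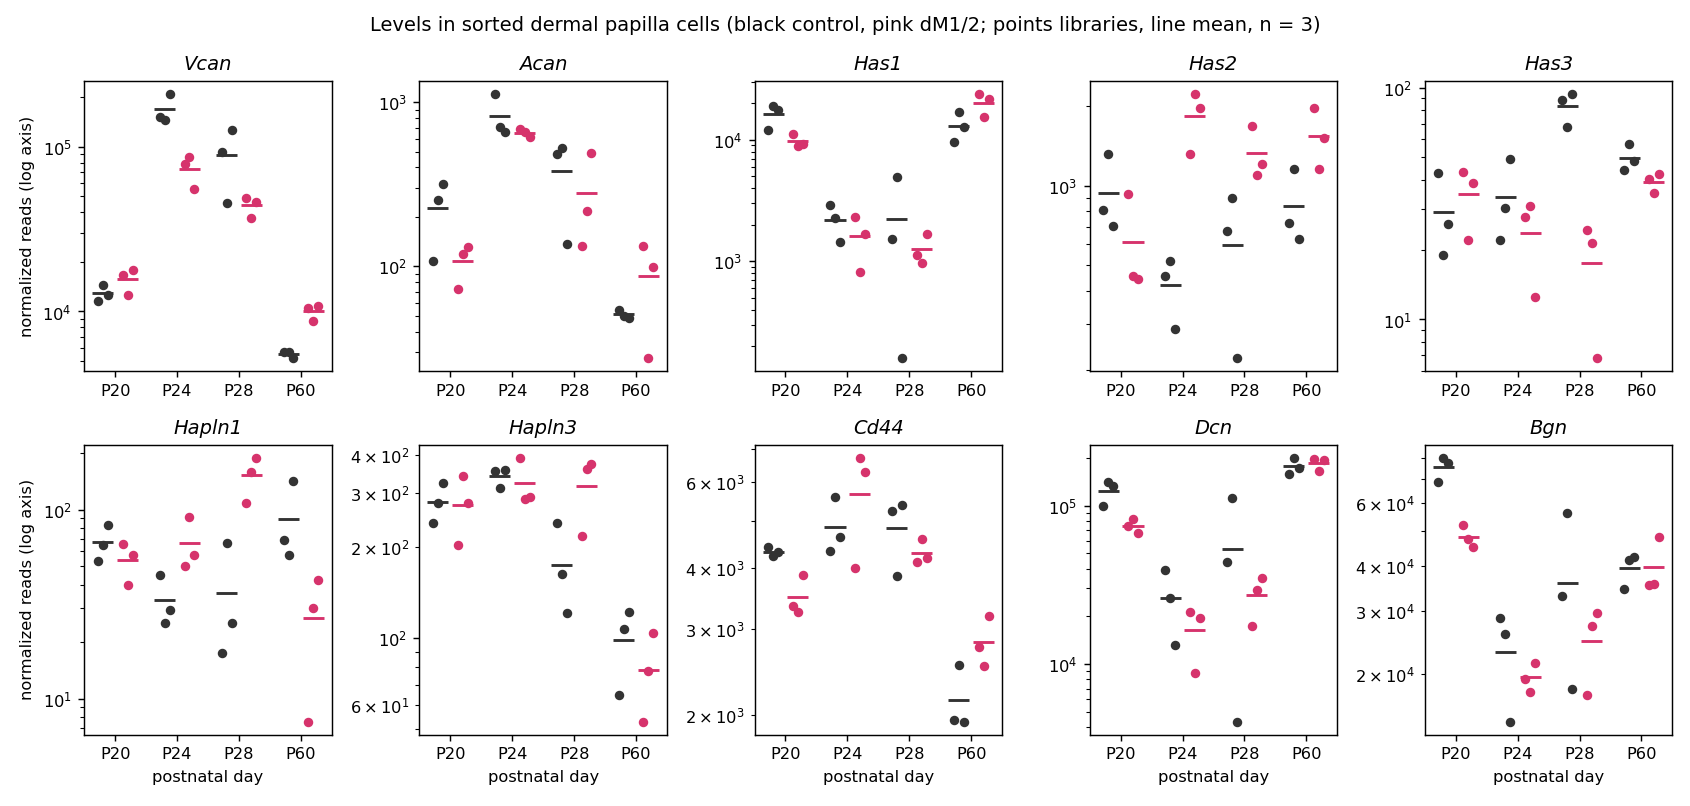
Normalized reads (log axis) of the 10 genes in the 24 libraries at P20, P24, P28 and P60, with black points for control, pink points for dM1/2 and lines for the means of 3 libraries. Vcan peaks at P24, where controls lie between 146157 and 208236, and Dcn and Has1 are highest in telogen.

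In controls, Vcan was the member that rose most from telogen to anagen. There, Vcan held 11573, 14509 and 12534 normalized reads at P20 and 151077, 146157 and 208236 at P24. It held 92819, 45612 and 127185 at P28 and 5659, 5710 and 5222 at P60. All anagen controls thus lay above all telogen controls, and the P28 controls were spread 2.79-fold. Vcan took 0.802% to 1.21% of all reads on genes in the P24 controls and 0.0256% to 0.0283% in the P60 controls. Over all control libraries the log2 difference of anagen against telogen was 3.79 ± 0.23 (SE, adjusted p = 1.23e-06, limma), with 3.63 to 4.00 when any single library was left out. In dM1/2 the same difference was 2.17 ± 0.16 (adjusted p = 4.04e-07, limma).

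Between genotypes, Vcan fell in dM1/2 at P24 and did not pass the threshold at the other ages. At P24, the dM1/2 libraries held 78719, 86271 and 55412 normalized reads, all below the 3 controls. On the log2 scale dM1/2 differed from control by -1.20 ± 0.35 (SE, adjusted p = 0.0390, limma). The direction was the same in 6 of 6 fits that left out a library, with log2 fold changes from -1.33 to -1.01, but the call was lost in each of them (adjusted p from 0.0607 to 0.143, limma). At P28, the dM1/2 libraries held 48842, 36836 and 46307 normalized reads against controls of 45612 or more, so that the groups overlapped. The log2 change there was -0.90 ± 0.47 (adjusted p = 0.180, limma), and it passed the threshold without P28 control 2 (-1.31, adjusted p = 0.0376, limma). At P60, the dM1/2 libraries held 10482, 8778 and 10786, all above the 3 controls of that age. The log2 change was 0.85 ± 0.16, with an unadjusted p of 0.000615 and an adjusted p of 0.719 (limma), where DESeq2 gave an adjusted p of 0.000642. At P20, the dM1/2 libraries held 16720, 12579 and 17938 and overlapped the controls (0.28 ± 0.16, adjusted p = 0.364, limma). The effect of the deletion on Vcan differed between anagen and telogen by -1.62 ± 0.28 on the log2 scale (adjusted p = 0.000327, limma over 24 libraries). Its mean was -1.05 over P24 and P28 and 0.57 over P20 and P60.

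Ordered by the group mean, Vcan was highest in P24 controls (168490 ± 34509, SD), followed by P28 controls (88539 ± 40955), P24 dM1/2 (73468 ± 16086) and P28 dM1/2 (43995 ± 6328). P20 dM1/2 (15746 ± 2809), P20 controls (12872 ± 1497), P60 dM1/2 (10015 ± 1082) and P60 controls (5530 ± 268) came after them. In this order the ranges of P28 controls and P24 dM1/2 overlapped, as did those of P20 dM1/2 and P20 controls, and the other neighbours did not.

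Acan, best known as the main proteoglycan of cartilage, was a minor lectican here and shared the rise of Vcan in anagen. Acan held 1117, 702 and 657 normalized reads in P24 controls and 482, 524 and 136 in P28 controls. It held 107, 254 and 315 in P20 controls and 54.6, 50.05 and 48.4 in P60 controls. The P24 controls lay above all others, and the lowest P28 control lay within the range of P20. The log2 difference of anagen against telogen was 2.31 ± 0.36 in controls (adjusted p = 0.000491, limma) and 2.18 ± 0.38 in dM1/2 (adjusted p = 0.000332, limma), and without the P60 libraries it was 1.31 in controls (adjusted p = 0.0639, limma). Between genotypes Acan did not pass the threshold at any age, with log2 changes of -0.96 ± 0.39 (P20), -0.30 ± 0.20 (P24), -0.43 ± 0.64 (P28) and 0.49 ± 0.55 (P60, or 0.04 without P60 dM1/2 1). At P20 the dM1/2 libraries held 72.8, 119.5 and 131, and the call was made without P20 control 1 (-1.43, adjusted p = 0.0219, limma). Per kilobase of merged exons, the mean of Acan was 111 and that of Vcan 11651 normalized reads in P24 controls.

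Hapln1, the link protein gene next to Vcan, was low in all libraries, and in the 2 genotypes it moved in opposite directions between the stages. In controls it held 53.6, 64.9 and 83.2 normalized reads at P20, 44.9, 25.1 and 29.4 at P24, 17.4, 66.6 and 25.03 at P28 and 69.3, 57.2 and 141 at P60. In dM1/2 it held 65.9, 39.8 and 57.3 at P20, 50.5, 91.0 and 57.2 at P24, 108, 159 and 187 at P28 and 7.57, 30.2 and 42.4 at P60. The P28 dM1/2 libraries lay above every P28 control, and the P60 dM1/2 libraries lay below every P60 control, with only 3 reads in the lowest, P60 dM1/2 1. At P28 the log2 change was 2.22 ± 0.50 (adjusted p = 0.0141, limma), where it was 0.97 ± 0.34 at P24 (adjusted p = 0.0694, limma). At P60 it was -1.88 ± 0.65 (unadjusted p = 0.0198, adjusted p = 0.986, limma), or -1.18 without P60 dM1/2 1, and at P20 -0.31 ± 0.31 (adjusted p = 0.604, limma). The P28 call was lost without dM1/2 2 (adjusted p = 0.0589, limma) or without dM1/2 3 (adjusted p = 0.0571, limma). Hapln1 was lower in anagen than in telogen in controls (-1.20 ± 0.34, adjusted p = 0.0148, limma) and higher in anagen in dM1/2 (1.49 ± 0.36, adjusted p = 0.00326, limma). The former call was lost without the P24 libraries (-1.23, adjusted p = 0.0623, limma) or those of P60 (-1.05, adjusted p = 0.0812, limma), and the latter without those of P28 (0.89, adjusted p = 0.149, limma). The effect of the deletion differed between the stages by 2.69 ± 0.52 (adjusted p = 0.000767, limma), the largest such difference among the 10 members, and this kept its call in 24 of 24 fits with a library left out.

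Hapln3, next to Acan, was lowest at P60, and in P24 controls its mean was 97.3 normalized reads per kilobase of exon, against 5.61 for Hapln1. In controls it held 238, 279 and 324 normalized reads at P20, 354, 312 and 358 at P24, 240.1, 163 and 121 at P28 and 65.1, 107 and 122 at P60. In dM1/2 it held 202, 343 and 277 at P20, 392, 286 and 291 at P24, 217, 359.5 and 373 at P28 and 53.0, 77.9 and 104 at P60. The 2 genotypes overlapped at each age, and at P28 a single dM1/2 library lay within the range of the controls. The log2 change at P28 was 0.87 ± 0.32 (adjusted p = 0.0727, limma), which passed without P28 control 1 (adjusted p = 0.0472, limma) or dM1/2 1 (adjusted p = 0.0481, limma), and at the other ages it lay between -0.33 and -0.05. Anagen was above telogen by 0.55 ± 0.20 in controls (adjusted p = 0.0375, limma) and by 1.13 ± 0.21 in dM1/2 (adjusted p = 0.000447, limma), but in controls the call was lost in 7 of 12 fits without a single library (P20 controls 1 and 2, P24 controls 1, 2 and 3, P28 control 1 and P60 control 1, adjusted p from 0.0544 to 0.0883, limma) and the value was 0.04 without the P24 libraries (adjusted p = 0.914, limma). Without the P60 libraries these values were -0.22 (adjusted p = 0.448, limma) and 0.23 (adjusted p = 0.393, limma).

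The hyaluronan synthases each followed a course of their own. Has1 was higher in the telogen libraries, with 12039, 19086 and 17722 normalized reads in P20 controls and 9658, 16895 and 12630 in P60 controls. It held 2875, 2265 and 1431 in P24 controls and 1511, 4945 and 159.7 in P28 controls, all below the telogen controls. The P28 controls were spread 31.0-fold. The log2 difference of anagen against telogen was -3.25 ± 0.64 in controls (adjusted p = 0.00209, limma) and -3.38 ± 0.23 in dM1/2 (adjusted p = 2.69e-07, limma). Has1 did not pass the threshold between genotypes at any age. The dM1/2 libraries held 11174, 8872 and 9161 at P20, all below the P20 controls, and 2309, 817 and 1674 at P24, 1121, 962 and 1668 at P28 and 23706, 15491 and 21501 at P60, where they overlapped the controls. The log2 changes were -0.72 ± 0.19 (P20, adjusted p = 0.0995, limma), -0.52 ± 0.40 (P24), 0.20 ± 1.12 (P28) and 0.65 ± 0.27 (P60, adjusted p = 0.986, limma). The sign at P28 turned with P28 control 3, without which it was -1.17, and it was negative with edgeR and DESeq2.

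Has2, the synthase known from embryonic tissue and from growing fibroblasts, kept its P24 call between genotypes under every alternative run. At P24 it held 456, 519.6 and 286 normalized reads in controls and 1321, 2224 and 1974 in dM1/2. The groups did not overlap, and Has2 rose on the log2 scale by 2.14 ± 0.27 (adjusted p = 0.00234, limma), with 1.88 to 2.36 when a library was left out and an adjusted p of at most 0.0159 (limma). At P28 the controls held 675, 897 and 222 and the dM1/2 libraries 1683, 1102 and 1206, again without overlap. The difference on the log2 scale was 1.35 ± 0.50 (adjusted p = 0.0755, limma), and the call was made without P28 control 2 (adjusted p = 0.0245, limma) or without P28 control 3 (adjusted p = 0.0265, limma). At P60 the controls held 722, 1158 and 627 and the dM1/2 libraries 1977, 1159 and 1513, a log2 change of 0.91 ± 0.28 (unadjusted p = 0.0109, adjusted p = 0.986, limma) with the lowest dM1/2 library next to the highest control. At P20 the controls held 809, 1315 and 703 and the dM1/2 libraries 930.01, 456 and 444, and the groups overlapped (-0.66 ± 0.31, adjusted p = 0.271, limma). From telogen to anagen, Has2 fell in controls (-0.90 ± 0.33, adjusted p = 0.0428, limma) and rose in dM1/2 (0.72 ± 0.21, adjusted p = 0.0112, limma). The former call was lost in 7 of 12 fits without a single library (P20 control 1 or 2, P24 control 1 or 3, P28 control 3 and P60 control 1 or 2, with values of -0.94 to -0.60 and adjusted p from 0.0536 to 0.101, limma) and without the libraries of P20, P24 or P60 (-0.82, -0.74 and -0.99). It was also lost with edgeR (adjusted p = 0.0574 with TMM and 0.0539 with the deposited size factors) and without a filter on low values (adjusted p = 0.0548, limma). The latter value was 0.02 without the P20 libraries and 0.49 without those of P24 (adjusted p = 0.949 and 0.140, limma). The deletion effect on Has2 differed between the stages by 1.62 ± 0.42 (adjusted p = 0.00645, limma), which was 0.84 without the P20 libraries (adjusted p = 0.263, limma) and 1.23 without the P24 libraries (adjusted p = 0.105, limma).

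Has3 was near the lower end of detection, with 7 to 247 reads per library. At P28 it held 88.7, 67.9 and 93.7 normalized reads in controls and 24.3, 21.4 and 6.82 in dM1/2, without overlap. Has3 fell by 2.35 ± 0.48 on the log2 scale (adjusted p = 0.0103, limma), and the call held in 6 of 6 fits without a library. At the other ages the controls held between 18.9 and 57.2 and the dM1/2 libraries between 12.5 and 43.2, with log2 fold changes of 0.27 ± 0.44 at P20, -0.52 ± 0.46 at P24 and -0.33 ± 0.31 at P60. The effect of the deletion differed between anagen and telogen by -1.40 ± 0.44 (adjusted p = 0.0207, limma), and it was -0.48 without the P28 libraries (adjusted p = 0.588, limma), -1.10 without those of P20 (adjusted p = 0.154, limma) and -1.70 without those of P60 (adjusted p = 0.0505, limma). Exons of Has3 overlap those of Chtf8 on the opposite strand, which held a mean of 984 normalized reads, and although the library kit was directional, the strand setting of the counting is not given in the sources used here, so that reads in the shared stretch cannot be told apart. Exons of Has2 likewise overlap those of Has2os on the opposite strand, which is not among the genes counted. Reads in that stretch cannot be told apart either, which limits the Has2 values as well.

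**Figure D2:**
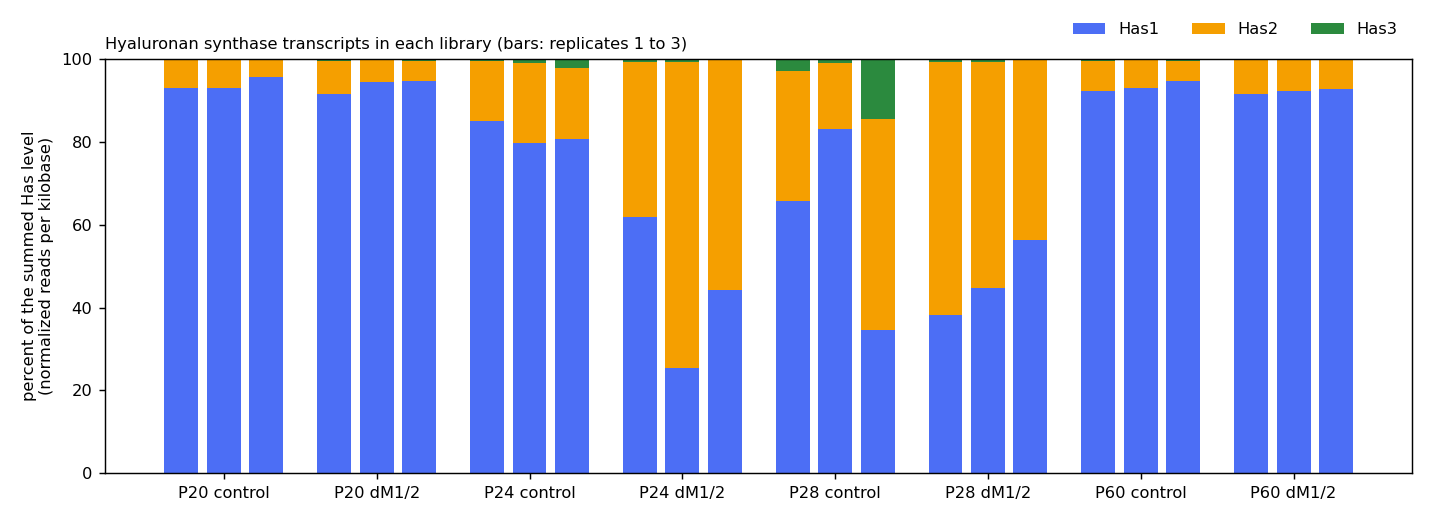
Percent of the summed hyaluronan synthase level (normalized reads per kilobase of exon) that came from Has1, Has2 and Has3 in each library, with 3 bars per group for replicates 1 to 3. Has1 makes up 91.6% to 95.8% in the telogen libraries and 25.4% to 61.8% in the P24 dM1/2 libraries.

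Per kilobase of exon, the plot of synthase shares shows that Has1 made up nearly the whole synthase level in telogen. In the P24 controls, Has1 made up 85.1%, 79.7% and 80.8% of the summed level and Has2 14.4%, 19.5% and 17.2%. In P24 dM1/2, the share of Has2 was 37.7%, 73.9% and 55.6%, above all 3 controls, while the sum of the 3 genes was 827, 710.5 and 838 normalized reads per kilobase against 747, 629 and 392 in controls. At P28, Has2 made up 31.4%, 16.1% and 51.2% in controls and 61.2%, 54.6% and 43.5% in dM1/2, and the groups overlapped. P28 control 3 stood apart with a summed level of 102 and a Has3 share of 14.3%, where the other 23 libraries had Has3 shares of at most 2.74%.

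Cd44 had the narrowest range of the members, in proportion, over the 24 libraries, from 1939 to 6727 normalized reads. In controls it held 4422, 4234 and 4311 normalized reads at P20, 4338, 5583 and 4631 at P24, 5233, 3855 and 5397 at P28 and 1956, 2536 and 1939 at P60. The dM1/2 libraries held 3338, 3247 and 3875 at P20, 3997, 6727 and 6290 at P24, 4124, 4593 and 4190 at P28 and 2757, 2522 and 3189 at P60. At P20 the dM1/2 libraries all lay below the controls (-0.31 ± 0.11, unadjusted p = 0.0184, adjusted p = 0.168, limma), and at the other ages the groups overlapped, with log2 fold changes from -0.15 to 0.40. Anagen was above telogen by 0.66 ± 0.11 in controls (adjusted p = 0.00101, limma) and by 0.64 ± 0.13 in dM1/2 (adjusted p = 0.000866, limma), and without the P60 libraries the difference in controls was 0.15 (adjusted p = 0.426, limma).

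Dcn and Bgn ran against Vcan, being highest in telogen, and the control libraries of anagen differed widely in both. Dcn held 99857, 140127 and 132180 normalized reads in P20 controls and 157404, 200002 and 171845 in P60 controls. It held 39358, 26062 and 13247 in P24 controls and 43977, 111103 and 4333 in P28 controls, a spread of 25.6-fold at P28. P28 control 2 thus lay within the range of P20, and P28 control 3 was the lowest of the 24 libraries. The log2 difference of anagen against telogen was -2.51 ± 0.64 in controls (adjusted p = 0.00862, limma) and -2.55 ± 0.25 in dM1/2 (adjusted p = 3.28e-06, limma). The former was -2.41 without the P24 libraries (adjusted p = 0.0573, limma) and -2.26 without those of P60 (adjusted p = 0.0741, limma). Bgn held between 34579 and 80257 in telogen controls and between 14721 and 56274 in anagen controls, and the difference was -1.02 ± 0.27 in controls (adjusted p = 0.0107, limma) and -1.004 ± 0.16 in dM1/2 (adjusted p = 0.000182, limma). Without the P20 libraries, that of controls was -0.56 for Bgn (adjusted p = 0.249, limma), and without the P24 libraries it was -0.75 (adjusted p = 0.120, limma).

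Neither Dcn nor Bgn passed the threshold between genotypes at any age. At P20, Dcn held 74451, 82293 and 67061 normalized reads in dM1/2, all below the P20 controls, a difference of -0.72 ± 0.21 on the log2 scale (adjusted p = 0.117, limma). Bgn held 51965, 47567 and 45128 there against 68914, 80257 and 77477 in controls, also without overlap (-0.65 ± 0.17, adjusted p = 0.0995, limma). The P20 values of Has1, Dcn and Bgn passed the threshold without P20 control 1 (adjusted p = 0.0144, 0.0298 and 0.0318, limma). At P24, Dcn held 21213, 8764 and 19414 in dM1/2 and overlapped the controls (-0.64 ± 0.47, adjusted p = 0.356, limma). At P28, it held 17481, 29417 and 34764 in dM1/2, and the log2 fold change of -0.08 ± 1.10 turned to 0.92 without P28 control 2 and to -1.42 without P28 control 3 (adjusted p = 0.0431, limma). At P60, the dM1/2 libraries held 196685, 165580 and 193186, and the groups overlapped (0.07 ± 0.38). Bgn differed by -0.18 ± 0.27 at P24, -0.42 ± 0.45 at P28 and 0.00 at P60.

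Markers of other dermal fibroblasts were, like Dcn, Bgn and Has1, lower in anagen than in telogen. The summed level of the 6 markers (Dpp4, Pi16, Clec3b, Ly6a, Dpt and Ly6c1) was 35796, 57171 and 4788 normalized reads in the P28 controls and 29588, 12375 and 6173 in the P24 controls, in the same order as Dcn in both groups. It was between 8457 and 17342 in the anagen dM1/2 libraries, between 29834 and 71846 at P20 and between 69116 and 88785 at P60 outside P60 dM1/2 1 (172123), and 0 of the 6 were at 0 in any library. At P20 the sum was 43194, 71846 and 54864 in controls and 37423, 40524 and 29834 in dM1/2, without overlap, while the DP markers summed to between 21045 and 29764 in controls and between 36196 and 50937 in dM1/2, the other way and also without overlap. Bgn did not follow these markers at every age, since its control means were 75549 at P20 and 39511 at P60 and it held 35546 in P60 dM1/2 1, the lowest of its group. All 6 were lower in anagen than in telogen in both genotypes (limma), and 0 of 6 passed the threshold between genotypes at any age. The DP markers summed to 203029, 113770 and 338312 in the P28 controls, the reverse of that order and the same order as Vcan. At P24 that sum was between 184781 and 212998 in controls and between 117745 and 139555 in dM1/2, without overlap. Of the 15 DP markers, 7 were lower and 1 higher in dM1/2 at P24, against 5 lower and 3 higher at P28 (limma). These counts are to be read beside the 26.6% and 35.5% of all genes called at these ages. The part of these markers in the results for Dcn, Bgn, Has1 and Vcan was not tested.

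**Figure D3:**
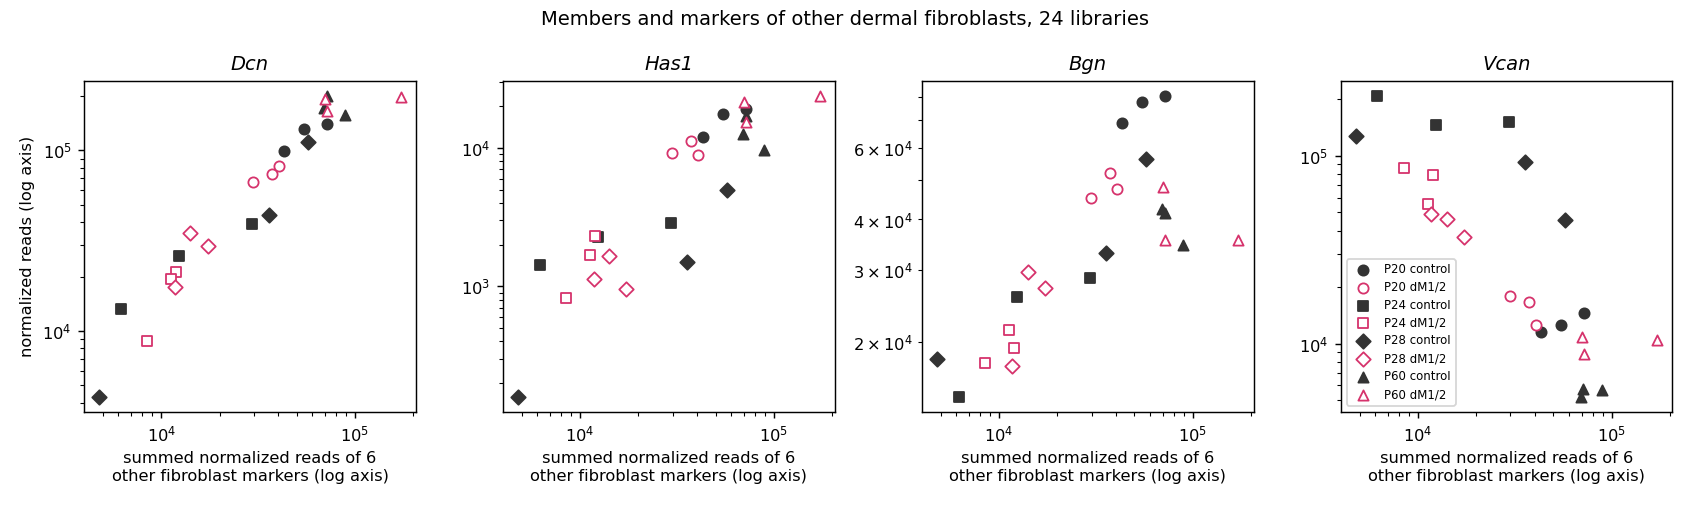
Normalized reads of Dcn, Has1, Bgn and Vcan against the summed normalized reads of 6 markers of other dermal fibroblasts in the 24 libraries (both axes log), with black filled symbols for control and pink open symbols for dM1/2. The P28 controls (filled diamonds) run from 4788 to 57171 on the marker axis and from 4333 to 111103 for Dcn.

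Per kilobase of exon, Vcan led the set at P24 and Dcn at the other ages, by the group means. Dcn was 68.9, 86.8 and 81.5 times Vcan in P60 controls and 21.4, 23.9 and 26.1 times Vcan in P20 controls. In P24 controls this ratio was 0.645, 0.442 and 0.158, and in P28 controls it was 1.17, 6.03 and 0.0844, where P28 dM1/2 had 0.887, 1.98 and 1.86. Vcan exceeded Dcn in all P24 libraries of both genotypes, where dM1/2 had ratios of 0.668, 0.252 and 0.868. In P60 dM1/2 the ratio was 46.5, 46.7 and 44.4, below all P60 controls, and in P20 dM1/2 it was 11.03, 16.2 and 9.26, below all P20 controls. The mean levels in P60 controls ran from Dcn (30219 normalized reads per kilobase) through Bgn (6478), Has1 (2891), Vcan (382), Cd44 (316) and Has2 (197) to Hapln3 (27.9), Hapln1 (15.1), Has3 (7.82) and Acan (6.83).

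Counted over the set, the members called between genotypes at each age are given beside the share of all genes called. At P24, limma called 2 of the 10 members (Has2 higher, Vcan lower), where 26.6% of all 14028 genes tested were called, and DESeq2 called 3, with Hapln1 (0.99, adjusted p = 0.0413, DESeq2), where it called 33.5%. At P28 it called 2 of 10 (Hapln1 higher, Has3 lower), where 35.5% of 14126 genes were called. DESeq2 called 5 (with Vcan, Has2 and Hapln3), where it called 41.3% of all genes, and limma over all 24 libraries called 5, where it called 39.8%. Without the library labelled P28 control 3, limma called 4 at P28: Has3 (-2.26, adjusted p = 0.0139, limma), Hapln1 (2.08, adjusted p = 0.0162, limma), Has2 and Dcn, where 40.9% of 14151 genes were called. Without that library, the difference of the effect between anagen and telogen was called for the same 4 members as with it (Vcan -1.46, Has2 1.32, Has3 -1.35 and Hapln1 2.62). At P20 limma called 0 of 10, where 0.433% of 13845 genes were called, and 5 of the members had an unadjusted p under 0.05 (Acan, Has1, Cd44, Dcn and Bgn, all lower in dM1/2), where 19.8% of all genes did. Without P20 control 1, limma called 4 members and 11.1% of all genes. DESeq2 called 3 at P20 (Has1, Dcn and Bgn lower), where it called 4.79% of all genes, and edgeR called 0. At P60 limma called 0 of 10 and 0% of the 14042 genes tested, and 5 members had an unadjusted p under 0.05 (Vcan, Has1, Has2 and Cd44 higher, Hapln1 lower) where 525 genes, or 3.74%, did. DESeq2 called 1 member at P60 (Vcan) and 0.185% of all genes, and edgeR called 0 members. The share of all genes that edgeR called at P20 and P60 is not given here. Its counts of 0 are therefore not read as results about the members. The median log2 fold change over the 10 members was -0.48 (P20), -0.24 (P24), -0.12 (P28) and 0.24 (P60), where the median over all genes lay between -0.01 and 0.02. The 4 ages do not share libraries.

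**Figure D4:**
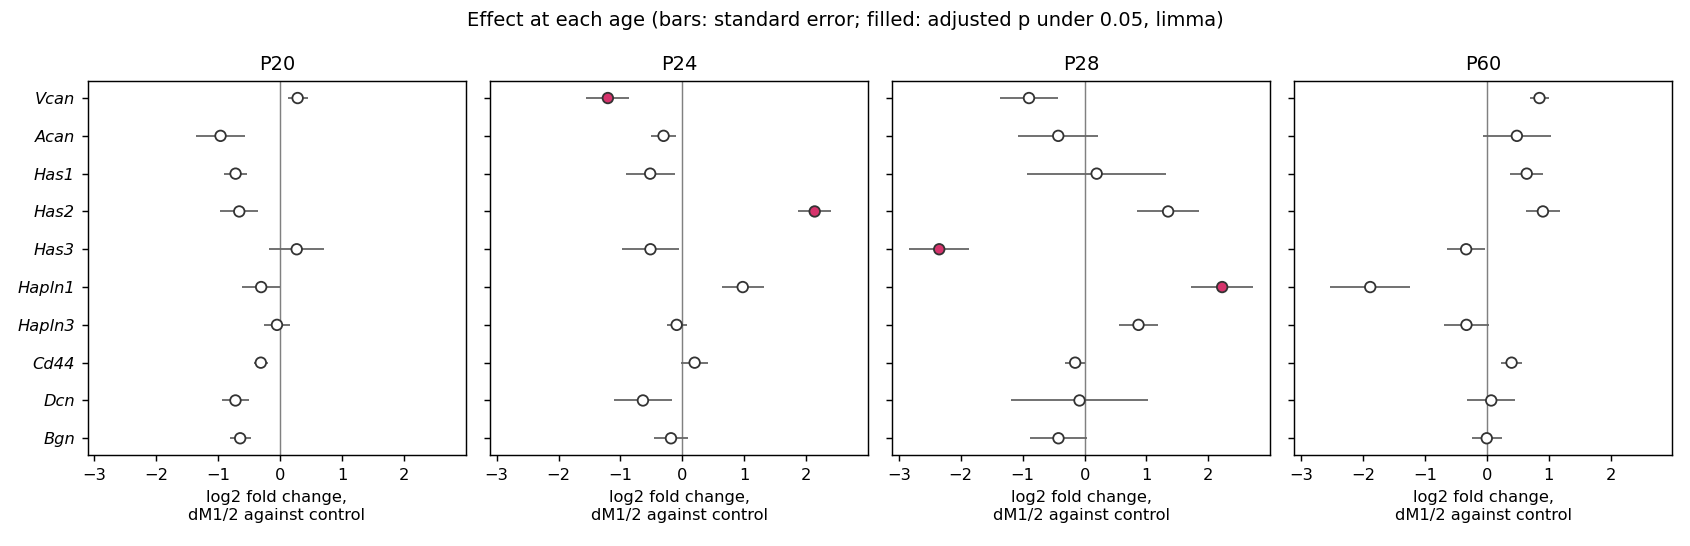
Log2 fold change of dM1/2 against control (bars: standard error, 3 against 3 libraries) of the 10 genes at each age, with filled points for an adjusted p under 0.05 (limma). Filled points are Vcan (-1.20) and Has2 (2.14) at P24 and Has3 (-2.35) and Hapln1 (2.22) at P28.

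Between stages, nearly the whole set moved. In controls, 9 of 10 members were called between anagen and telogen (Vcan, Acan, Hapln3 and Cd44 higher in anagen, Has1, Has2, Hapln1, Dcn and Bgn lower), where 45.6% of 14066 genes were called, and without the P60 libraries 3 members and 32.8% of all genes were. In dM1/2, 10 of 10 were called (6 higher, 4 lower), where 62.1% of 14277 genes were called. Has3 did not pass in controls (0.47 ± 0.25, adjusted p = 0.154, limma), where it was -0.20 without the P28 libraries and 1.14 without those of P24 (adjusted p = 0.0178, limma). It was lower in anagen in dM1/2 (-0.93 ± 0.35, adjusted p = 0.0349, limma), a call lost in 5 of 12 fits without a single dM1/2 library (P20 1 or 3, P24 3, P28 3 or P60 3, adjusted p from 0.0602 to 0.0874, limma). That call was also lost with edgeR (adjusted p = 0.0672 with TMM and 0.0557 with the deposited size factors), without a filter (adjusted p = 0.0589, limma) and without the libraries of P20, P28 or P60 (adjusted p = 0.0700, 0.146 and 0.146, limma). The difference of the effects between anagen and telogen was called for 4 of 10 members (Has2 and Hapln1 positive, Vcan and Has3 negative), where 30.2% of 14243 genes were called.

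From P24 to P28, none of the members passed the threshold with limma in either genotype. In controls 0 of 10 were called, where 1.46% of 13966 genes were, and 3 had an unadjusted p under 0.05, where 18.6% of all genes did: Acan (-1.30 ± 0.53), Has3 (1.34 ± 0.35, adjusted p = 0.111, limma) and Hapln3 (-1.02 ± 0.26, adjusted p = 0.108, limma). In dM1/2 0 of 10 were called, where 2.67% of 14032 genes were, and 3 had an unadjusted p under 0.05, where 16.8% of all genes did: Vcan (-0.73 ± 0.26), Acan (-1.42 ± 0.39, adjusted p = 0.105, limma) and Hapln1 (1.19 ± 0.29, adjusted p = 0.0682, limma). DESeq2 called 2 members in controls and 3 in dM1/2, where it called 10.7% and 8.03% of all genes, and edgeR called 0 in each. Hapln1 passed in dM1/2 without P24 dM1/2 2 (1.44, adjusted p = 0.0406, limma) or P28 dM1/2 1 (1.41, adjusted p = 0.0490, limma). The difference between these changes was called for 0 of 10, where 0.707% of 14139 genes were, and DESeq2 called 0 members and 4.21% of all genes, as edgeR called 0 members. Has3 (-1.83 ± 0.70) and Hapln3 (0.96 ± 0.38) had an unadjusted p under 0.05 there, as did 11.9% of all genes. For these comparisons too, the share of all genes that edgeR called is not given. Its counts of 0 are likewise not read as results about the members.

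Other genes of the pathway were read from 8 lists, which were chosen with earlier results of these data known and are described by counts, to be read beside the 26.6% of all genes called at P24 and the 35.5% at P28. Of the partners that bind lecticans or hyaluronan, 0 of 10 were past the threshold at P24 and 2 of 11 at P28. Those 2 were Hmmr, a hyaluronan-binding protein of dividing cells (2.61, adjusted p = 0.00092, limma), and Habp4 (0.72), both higher in dM1/2. Of 11 genes that make hyaluronan precursors or break hyaluronan down, Cemip2, a cell-surface protein tied to hyaluronan breakdown, was lower at P24 (-1.06, adjusted p = 0.00358, limma) and at P28 (-1.92, adjusted p = 0.00736, limma). Cemip, which promotes hyaluronan breakdown, was higher at P28, with 266 ± 47.0 normalized reads in dM1/2 against 4.51 ± 1.18 in controls (mean ± SD, 3 libraries each) and a log2 change of 5.61 (adjusted p = 0.000177, limma).

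Of 14 other small leucine-rich proteoglycans tested, 2 passed the threshold at P24 and 3 at P28, all lower in dM1/2 and below the share of all genes called at each age. They were Podnl1 (-3.31) and Fmod (-1.31) at P24 and Podnl1 (-3.00), Optc (-1.68) and Chadl (-1.26) at P28, and the median of the list was -0.53 at P24 and -0.44 at P28. Of 7 other chondroitin sulfate proteoglycans, Cspg5 was higher at P24 (1.20). At P28, 4 were higher, among them Spock1 (2.47), Cspg5 (1.50) and Spock3 (1.26), and Ptprz1, a receptor-type phosphatase that carries chondroitin sulfate, was lower (-2.09).

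Of 25 genes of chondroitin and dermatan sulfate synthesis, 3 were higher and 4 lower at P24, and 4 were higher and 7 lower at P28. The sulfotransferase gene Chst3 was higher at both ages (1.19 and 1.84), with Papss2 (1.16) and Uxs1 (0.57) at P24 and Chst15 (1.17) and Chsy3 (1.11) at P28. Chst14, which acts on dermatan sulfate, was lower at both ages (-1.32 and -1.36), with Csgalnact2 (-0.70) and Chpf2 (-0.67) at P24 and Csgalnact1 (-1.20) and Chpf2 (-0.89) at P28. The list's median was 0.07 at P24 and -0.35 at P28.

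Of the 7 Adamts proteases that cleave versican, 0 were called at P24, and at P28 Adamts20 (2.98) and Adamts15 (1.05) were higher and Adamts9 (-1.38) was lower. Of the matrix ligands of versican, Fbln1 (0.90) and Fbn2 (0.72) were higher and Selp (-1.64) was lower at P24, of 6 tested. At P28, Tnr (2.37) and Tnc (1.51) were higher and Fbn1 (-1.39) was lower, of 7 tested. Of the cartilage matrix genes, 4 of 11 were higher at P24, among them Sox9, a regulator of cartilage genes (1.95), with Col9a3 (1.40) and Col9a2 (1.37), and Col11a1 (-0.76) was lower. At P28, 3 of 12 were higher, namely Col9a2 (4.19), Sox9 (3.92) and Col9a3 (2.44), and the list's median was 1.13 at P24 and 0.56 at P28. At P20 and P60, 0 genes of the 8 lists were called with limma, where 0.433% and 0% of all genes were called. These counts of 0 are therefore not read as results about the lists.

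**Figure D5:**
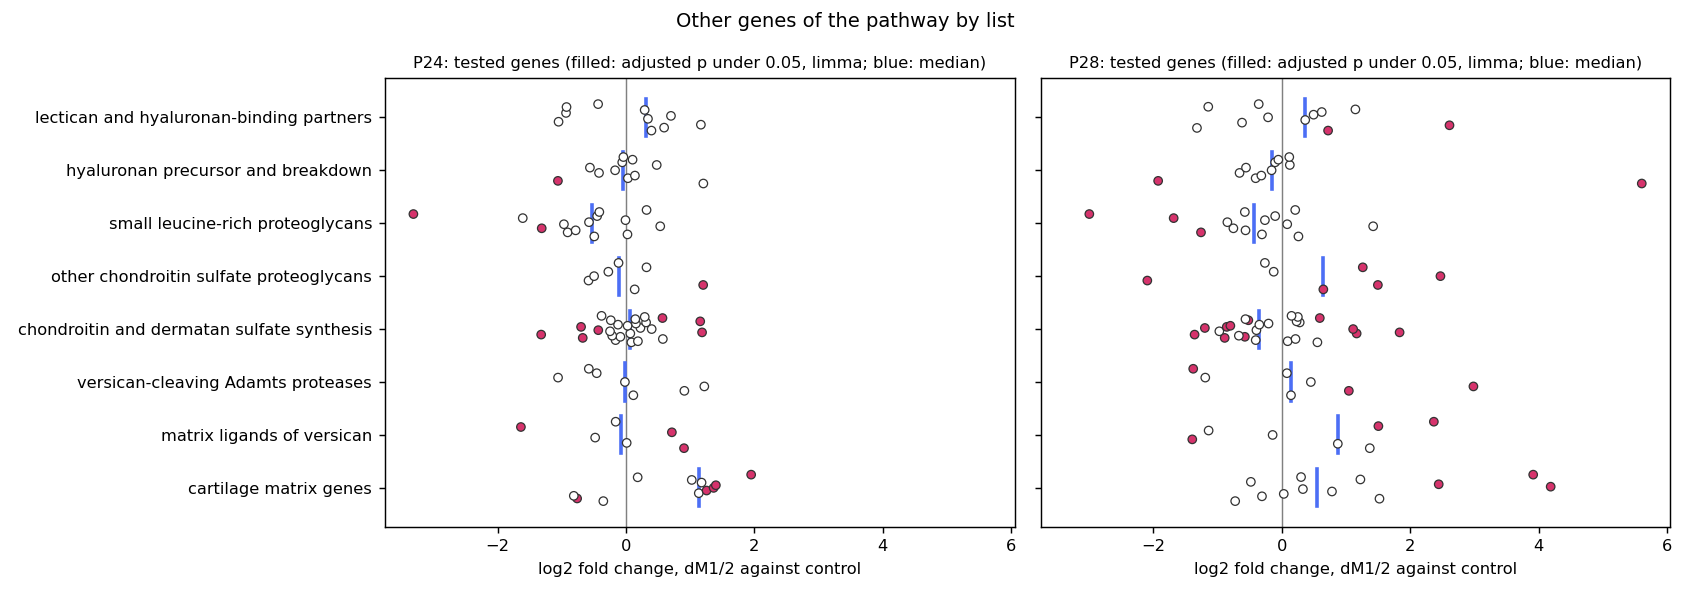
Log2 fold change of dM1/2 against control at P24 and P28 for the tested genes of 8 pathway lists, with 1 point per gene, filled points for an adjusted p under 0.05 (limma) and blue bars for list medians. Podnl1 at P24 (-3.31) is the lowest point and Cemip at P28 (5.61) the highest.

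The genes whose course over the 24 libraries was most like that of each member were read by Pearson's r of log2(normalized reads + 1), as a description over libraries that share stage, sex and depth. Vcan was followed most closely by F5 (0.98), Hey2 (0.97), Alpl (0.97), Col11a1 (0.97) and Slc5a7 (0.96). Dcn was followed by Pcolce2 (0.99), Mmp27 (0.99) and Cd34 (0.99), Has1 by Mt2 (0.98), Fgl2 (0.98) and Thbs2 (0.98), and Bgn by Cd63 (0.97), Clec11a (0.96) and Cpxm2 (0.96). Cd44 came with Fbn2 (0.92), Apela (0.87) and Mettl9 (0.87), Acan with Gstm5 (0.91), Adamts18 (0.89) and Atpif1 (0.89), and Hapln3 with Cxcr4 (0.91), Megf6 (0.87) and Sorcs2 (0.87). The closest genes of Has2 were Zfpm1 (0.88), Galnt12 (0.86) and Pknox2 (0.85), those of Has3 Lpp (0.84), Klhdc7a (0.83) and Taok1 (0.83), and those of Hapln1 Tasp1 (0.79), Foxd1 (0.78) and Avpr1a (0.78). Among the members themselves, r was 0.95 between Has1 and Dcn, 0.82 between Vcan and Acan, -0.85 between Vcan and Dcn, -0.16 between the neighbours Vcan and Hapln1 and 0.71 between the neighbours Acan and Hapln3.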

How the data were processed

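RNA-seq of sorted DP cells was analysed from 4 tables, 1 per age. Per the methods, the authors trimmed single-end reads with Trimmomatic, mapped them to mm10 with TopHat2, counted reads per Ensembl gene (GRCm38.p4) with HTSeq and divided the counts by DESeq2 size factors. The deposited values are therefore signal values (normalized reads). The authors sorted each mouse separately, and p-values measure the spread between these samples. Whole reads were recovered from the steps of the values, and 100% came out whole within 0.01.

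A gene whose mean reached 10 normalized reads in the libraries compared was tested with limma 3.58.1 (R 4.3.3) on log2(normalized reads + 1), with Benjamini-Hochberg adjustment over all genes and a threshold of 0.05. Each age was fitted on its own 6 libraries, and the stage contrasts on the libraries they use. The edgeR 4.0.16 and DESeq2 1.42.0 tests on the recovered reads were alternatives, as were another pseudocount (10), no filter, log2-CPM, all 24 libraries, a replicate block, a threshold of 0.01 and leaving out each library. The limma fits between genotypes at P24 and P28 were checked on simulated counts with the same set spread for every gene. That check does not cover a spread as wide as that of the P28 controls, nor the other contrasts. Leaving out the libraries of 1 age was chosen after seeing the data. The authors' mean of a gene is the same in all 4 tables, so the 24 libraries were scaled together. Their columns of means, fold changes and p-values were not used.

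The members and lists were chosen with earlier results of these data known. All 10 members were named in the comparisons of genotypes and stages, with up to 3 rises and 3 falls per list at P24 and P28 and the genes most like each member in course. Of 175 list entries, 174 matched a gene. Depth sets the precision: a count of 0 allows up to 3 reads, for counting error only. Promoters came from RefSeq (GRCm38.p6) and gene positions from GENCODE.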

Additional observations from a re-analysis of the deposited data

Results flagged for a closer look

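The effect of the deletion (dM1/2 minus control, log2) differed between anagen and telogen for 4 members in a test of the difference itself (limma over 24 libraries, Benjamini-Hochberg adjustment), where 30.2% of all genes passed. For Vcan the difference was -1.62 ± 0.28 (adjusted p = 0.000327), with a mean effect of -1.05 in anagen and 0.57 in telogen. Hapln1, its neighbour on chromosome 13, differed the other way by 2.69 ± 0.52 (adjusted p = 0.000767, limma), with 1.598 in anagen and -1.10 in telogen. The telogen mean of Hapln1 joins -0.31 at P20 and -1.88 at P60, and neither passed the threshold (limma). Without P60 dM1/2 1, which held 3 reads of Hapln1, the P60 value was -1.18. Has2 differed by 1.62 ± 0.42 (adjusted p = 0.00645, limma), with 1.74 in anagen and 0.12 in telogen. That telogen mean joins opposite values, -0.66 at P20 and 0.91 at P60. The Has2 difference was 0.84 without the P20 libraries (adjusted p = 0.263, limma) and 1.23 without those of P24 (adjusted p = 0.105, limma). Has3 differed by -1.40 ± 0.44 (adjusted p = 0.0207, limma), with -1.43 in anagen and -0.03 in telogen. Its anagen mean joins -0.52 at P24 and -2.35 at P28, and its telogen mean joins 0.27 at P20 and -0.33 at P60. The Has3 call was lost without the libraries of P20, P28 or P60 (adjusted p = 0.154, 0.588 and 0.0505, limma). All groups held 3 libraries, so none was screened for a single library far from the others.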

How the results depend on the processing

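The count of called members moved by over 1.5 times as follows, with the cause not tested. With DESeq2 it was 3 at P20, 5 at P28, 1 at P60, 2 for P28 against P24 in controls and 3 in dM1/2 (main values 0, 2, 0, 0 and 0). In that order, DESeq2 called 4.79%, 41.3%, 0.185%, 10.7% and 8.03% of all genes, and the main fits called 0.433%, 35.5%, 0%, 1.46% and 2.67%. With limma over all 24 libraries the count of members was 5 at P28 (where 39.8% of all genes were called) and 2 for P28 against P24 in controls. At an adjusted p under 0.01 it was 1 at P24, 0 at P28 and 5 for anagen against telogen in controls, and without a filter it was 1 at P24. That threshold also ended the calls of Has2 and Has3 between stages in dM1/2 and of Has3 for the difference of effects. That stage count in controls was 5 without the libraries of P24 and 3 without those of P60, and the count for the difference of effects was 2 without those of P20. Leaving out a library gave 0 to 4 at P20 (4 without P20 control 1), 1 to 1 at P24, 1 to 4 at P28, 0 to 0 at P60 and 0 to 1 for P28 against P24 in dM1/2. Over all genes the same fits called 0 to 1530, 2057 to 4012, 3043 to 5788, 0 to 2 and 57 to 446 genes. Where no share of all genes is given, a count is not read as a result about the members.

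The sign turned as follows. Has1 at P28 was -0.79 and -0.82 with edgeR (TMM and deposited size factors) and -0.84 with DESeq2, and Bgn at P60 was -0.0179 with edgeR (TMM), -0.0084 with DESeq2 and -0.0263 on log2-CPM. Without a library, Hapln3 at P20 ran from -0.23 to 0.15, Bgn at P24 from -0.48 to 0.0021, Acan at P28 from -1.05 to 0.0019, Has1 at P28 from -1.17 to 1.30, Dcn at P28 from -1.42 to 0.92, Dcn at P60 from -0.0061 to 0.17 and Bgn at P60 from -0.14 to 0.0743. In controls, anagen against telogen, Has3 was -0.20 without the libraries of P28, and Hapln3, which was called, was -0.22 without those of P60.

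The replicate numbers were not treated as pairs, since same-numbered control and dM1/2 libraries did not deviate together at every number (r from -0.39 to 0.30). With the replicate block, 1 member was called at P24 (Has2; Vcan had an adjusted p of 0.109, limma) and 1 for P28 against P24 in dM1/2 (Hapln1, adjusted p = 0.0365, limma), and Hapln3 lost its stage call in controls (adjusted p = 0.0585, limma). No other member's call changed with the block. With a pseudocount of 10, 74 of the 74 member values followed kept their direction and side of the threshold. Those values cover only some members for P28 against P24 and for the differences of changes or effects. Low reads limit Has3 and Hapln1.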
